A study of Mus musculus with 12 samples.

Results

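The comparison is between group 2 innate lymphoid cells (ILC2s) taken 20 weeks and 8 weeks after bone marrow transplant, with the 2 donor genotypes pooled. All 12 libraries of the series entered it, 6 of each time, and each time held 3 wild-type (WT) and 3 libraries labelled Rag1 knockout. The value reported for a gene is the mean of its time effects within each genotype, and the contribution of each genotype is given where it matters. Of the genes summed from the deposited transcript estimates, 29542 in all, 26589 were autosomal, and the 13831 of these that passed a filter on low counts were tested.

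Per the labels, C57BL6 recipients of the CD45.1 allele were irradiated with 950 cGy and given equal parts of marrow from CD45.2 Rag1-/- donors and from CD90.1 WT donors. The 4 groups were WT cells at 8 weeks, knockout-labelled cells at 8 weeks, WT cells at 20 weeks and knockout-labelled cells at 20 weeks, with 3 libraries each. Every mouse, at either time, received IL-33 before harvest, on 7 days, with a dose of 30 ng in either cheek and an intraperitoneal dose of 240 ng, and the ILC2s were sorted from skin-draining lymph nodes. The knockout was thus confined to the donor-derived cells, which shared their host with WT blood cells, and no group went without IL-33 or irradiation. The series text and the sample labels differ in the length of the later time, and the labels (20 weeks) were followed. Neither the age of the mice, nor whether the libraries of a group came from separate mice, nor whether a WT and a knockout library of the same number came from 1 chimera, is stated. The p-values therefore measure the spread between these libraries, which may be partly technical or shared within a mouse. The time effect compares separate libraries, so it may include differences in harvest, sort session or mouse age, which the labels do not allow to be separated. The part of such differences in the results was not tested. Words such as fell or rose mean a lower or higher level in the libraries of 20 weeks than in those of 8 weeks.

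ILC2s are tissue lymphocytes without a rearranged antigen receptor. They are known for release of IL-5, IL-13 and amphiregulin when IL-33 from damaged epithelium engages the receptor ST2, encoded by Il1rl1, and they depend on the transcription factor GATA3. Engagement of such a receptor switches on immediate early genes within minutes, among them the AP-1 subunits Fos and Jun, and soon afterwards their brakes, which include phosphatases and inhibitors of NF-kB. Type I interferon acts through another route, in which STAT and IRF factors bind the promoters of antiviral genes.

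Estimated reads summed to 11433625 to 32529806 per library. The factors that scale library sizes (TMM) lay between 0.745 and 0.991 at 8 weeks and between 1.073 and 1.118 at 20 weeks, with no overlap between the times. Of the 8-week libraries, WT replicate 2 and knockout-labelled replicate 3 stood apart on the first and second principal components, which held 23.8% and 17.5% of the variance. The 10 most abundant genes took 8.85% to 24.5% of reads at 8 weeks and 8.95% to 10.7% at 20 weeks. Mitochondrially encoded transcripts took 0.252% to 1.23% and 0.857% to 1.59%. The headers record 24 threads for 2 libraries of 8 weeks and 4 of 20 weeks, and 8 threads for the others, which may mark separate runs of the quantification. Every knockout-labelled library of 20 weeks had 24 threads. Summed reads of the Y-linked genes Ddx3y, Eif2s3y and Uty were 305 to 340 CPM in WT cells of 20 weeks (3 libraries) and 1.97 to 6.85 CPM in the other 9, a difference that the labels do not mention. The part of these differences in the results was not tested. Rag1, the targeted gene, had 0 estimated reads in the 6 WT libraries and 0 to 18.4 in knockout-labelled ones. These are reads of the whole gene, and the part deleted is not given in the sources used here, so they do not check the labels. Thy1, whose CD90.1 and CD90.2 alleles mark the donors in the labels, was at 3.08 to 5.99 TMM-scaled CPM in the WT and at 17.5 to 39.6 CPM in the knockout-labelled libraries, without overlap. The time effect averaged over genotypes does not use which genotype is which, but values given by genotype do.

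With p-values adjusted by Benjamini-Hochberg and a threshold of 0.05 in edgeR's quasi-likelihood test, 381 of 13831 genes (2.75%) were called, 260 lower at 20 weeks (1.88%) and 121 higher (0.875%). The called genes included 154 with an absolute log2 fold change of at least 1, 101 lower and 53 higher. Of the 381, 371 had the same sign in both genotypes, against 69.6% of all tested genes. A call on the mean of 2 effects makes a shared sign likely in advance. Within each genotype alone 47 genes were called in WT and 9 in knockout-labelled cells, of which 31 and 9 had the same sign in the other genotype. A difference between the genotypes had an unadjusted p under 0.05 for 36 of the 381 and was called for 6. For 309 of the 381, 217 lower and 92 higher, the 3 libraries of 20 weeks lay on the same side of all 3 libraries of 8 weeks in WT and again in knockout-labelled cells. Such genes are called changed alike below. They made up most of the called genes, 217 of 260 lower and 92 of 121 higher. Counts of genes changed alike within a list are to be read against these shares. Over all tested genes 6.05% met this condition of no overlap in both genotypes, 3.47% with lower values and 2.58% with higher values at 20 weeks. The share of higher calls was 31.8% with TMM scaling and 82.4% with library totals only (399 higher, 85 lower), a scaling that moved the median log2 fold change of all genes from 0.02 to 0.25. Directions and counts below are relative to the bulk of genes for this reason, and an absolute change in RNA per cell cannot be read from them.

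**Figure D1:**
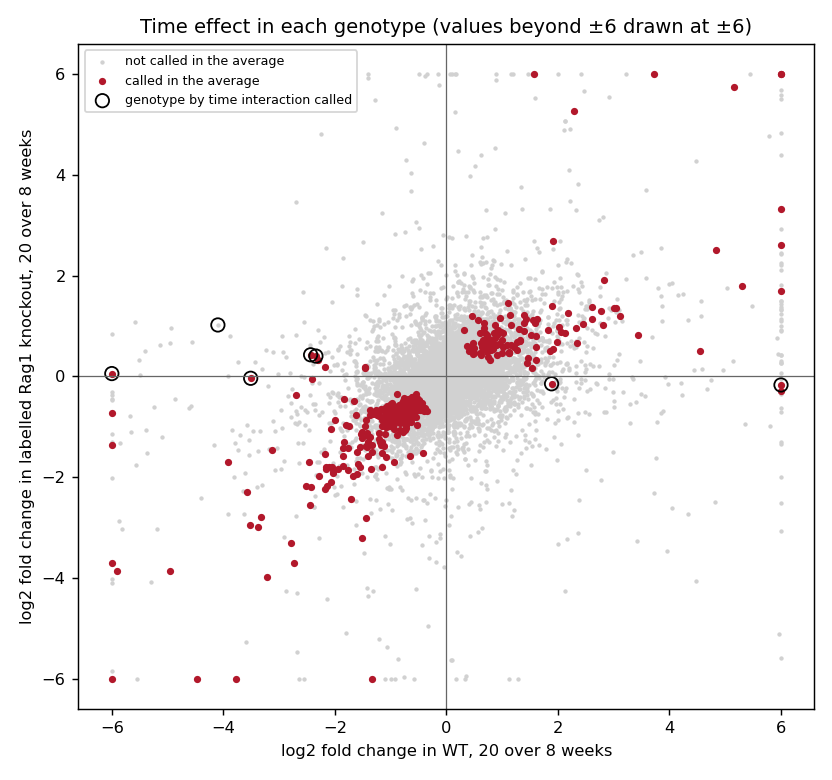
Each point is a tested gene, with its log2 fold change from 8 to 20 weeks in WT cells on the horizontal axis and in knockout-labelled cells on the vertical axis, 3 libraries per group. Red points are the 381 genes called in the average, 371 of which lie in the lower left or upper right quadrant, and the 7 circled genes are those called for a difference between the genotypes.

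The genes lower at 20 weeks with the smallest p-values were immediate early genes and the feedback inhibitors induced with them. Whether handling at harvest differed between the times was not tested. Of 31 tested members of the immediate early list, 14 were called lower and 0 higher (1.88% and 0.875% of all genes), 11 of the 14 changed alike, and 26 of 31 had a log2 value below 0. The list's median log2 fold change was -0.86, against 0.02 for all genes tested. Summed over the list, levels were 2480 to 4152 CPM at 8 weeks and 1597 to 1822 CPM at 20 weeks, without overlap.

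Fos (ENSMUSG00000021250, chromosome 12, 85473890 to 85477273, GRCm38), the AP-1 subunit used as a mark of recent stimulation, lay between 533 and 1282 CPM (median 1005) at 8 weeks and between 189.7 and 238 CPM (median 226) at 20 weeks. All 6 libraries of 20 weeks were below all 6 of 8 weeks (log2 fold change -2.13, SE 0.18, adjusted p = 0.000166). The fall was of like size in each genotype (-2.28 in WT and -1.98 in knockout-labelled cells). The AP-1 subunits Fosb and Jun fell as well. Fosb went from a median of 74.2 to 21.6 CPM (log2 fold change -1.64, adjusted p = 0.00496) and Jun from a median of 61 to 32.5 CPM (log2 fold change -1.01, adjusted p = 0.0197). Egr1, a zinc finger factor switched on by ERK signalling, lay between 13.99 and 52.6 CPM (median 37.9) at 8 weeks and between 5.93 and 14.03 CPM (median 6.94) at 20 weeks.

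The orphan nuclear receptors of the Nr4a family report strong stimulation in lymphocytes. Nr4a1 (ENSMUSG00000023034, chromosome 15, 101254269 to 101274795) lay between 91.3 and 240.0 CPM (median 218) at 8 weeks and between 14.98 and 32.9 CPM (median 22.2) at 20 weeks (log2 fold change -3.06, SE 0.27, adjusted p = 0.000171). Nr4a2 lay between 4.93 and 8.66 CPM (median 6.85) at 8 weeks and between 0.152 and 0.802 CPM (median 0.274) at 20 weeks, so the gene was close to its detection limit in the later libraries. Neither gene's libraries overlapped between the times. Atf3, a stress-induced factor of the same list, was at a median of 1.12 CPM at 8 weeks and at 0 in every knockout-labelled library of 20 weeks, where it was at least 7.1-fold lower against a floor of 3 counts per library.

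Some inhibitors of signalling were also among the called genes. Dusp1 (ENSMUSG00000024190, chromosome 17, 26505590 to 26562128), a phosphatase that inactivates MAP kinases, lay between 82.8 and 118 CPM (median 100.3) at 8 weeks and between 19.4 and 32.2 CPM (median 25.7) at 20 weeks (log2 fold change -1.96, SE 0.16, adjusted p = 0.000166). Tnfaip3 (ENSMUSG00000019850, chromosome 10, 19000910 to 19015657), which encodes the ubiquitin-editing NF-kB inhibitor A20, had the smallest p of all tested genes. It lay between 172 and 299 CPM (median 206) at 8 weeks and between 32.4 and 57.2 CPM (median 41.8) at 20 weeks (log2 fold change -2.35, SE 0.17, adjusted p = 0.000141), with no overlap and with log2 values of -2.52 in WT and -2.17 in knockout-labelled cells. Of the 32 tested genes of NF-kB and IL-33 receptor signalling, Tnfaip3 and Nfkbid (log2 fold change -1.23, adjusted p = 0.0353) were the 2 called lower and 0 were called higher. The list's median was 0.08, and 18 of 32 members had a log2 value above 0.

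Ppp1r15a, a phosphatase subunit that ends the integrated stress response, went from a median of 193 to 46.1 CPM (log2 fold change -1.99, SE 0.25, adjusted p = 0.00239). Other called members of the list were Klf6, Klf4, Csrnp1, Dusp5 and Dusp2, with log2 fold changes of -0.88, -1.19, -1.59, -0.84 and -1.36. Myc, in contrast, was at a median of 116 CPM at 8 weeks and 147 CPM at 20 weeks and was not called (adjusted p = 0.15). Outside the list, Cd69, an early activation antigen that also holds cells in the tissue, lay between 194 and 400.4 CPM (median 319) at 8 weeks and between 73.5 and 134 CPM (median 94.04) at 20 weeks. Rgs2, a brake of G protein signalling, went from a median of 242 to 102 CPM (adjusted p = 0.00107), and Cdkn1a, the cell cycle inhibitor p21, from a median of 60.8 to 17.8 CPM (adjusted p = 0.000171). Rgcc, a regulator of cell cycle kinases, went from a median of 33.6 to 5.92 CPM, and Rasd1, a small GTPase induced by steroids, from a median of 7.4 to 1.37 CPM.

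**Figure D2:**
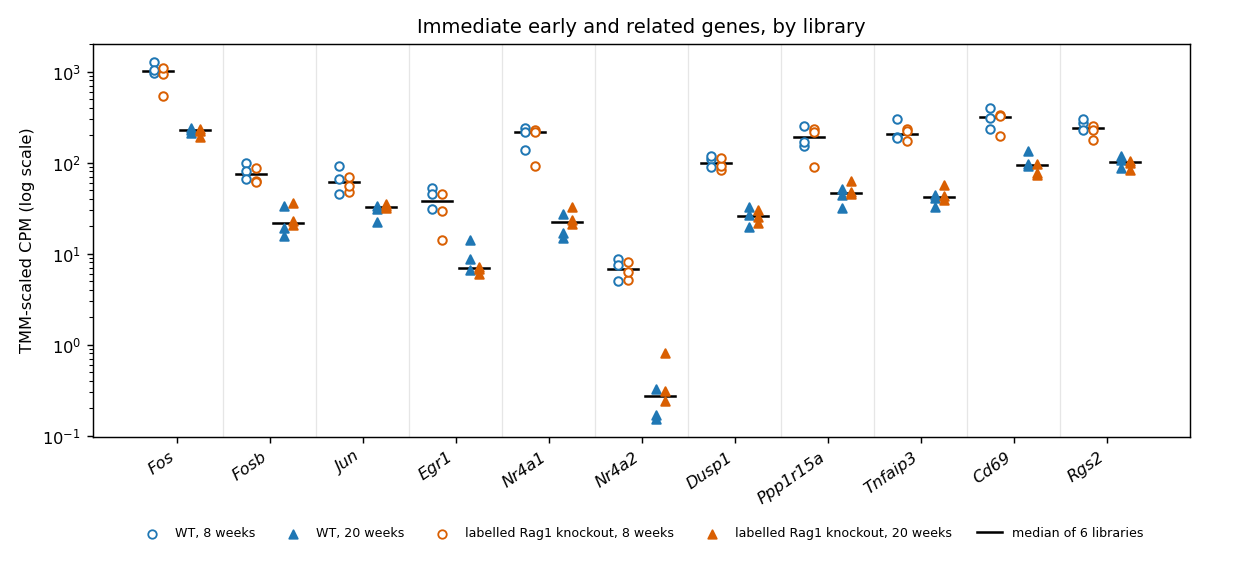
Levels in TMM-scaled CPM on a log axis of 11 immediate early genes, feedback inhibitors and early activation genes in each of the 12 libraries, with open circles for 8 weeks, filled triangles for 20 weeks, blue for WT and orange for knockout-labelled cells, and bars for the median of 6 libraries. In Fos the 8-week libraries sit between 533 and 1282 CPM and the 20-week libraries between 189.7 and 237.6 CPM, and the other genes are likewise separated within each genotype. The genes were picked from those that fell, part of them after their values were seen, so this separation follows in part from the choice.

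The number of early genes called lower differed with the library left out. Without any 1 of the 6 libraries of 20 weeks, or without WT replicate 1 or knockout-labelled replicate 2 of 8 weeks, 7 to 9 were called, and without any 1 of the other 4 libraries 11 to 16. Summing the WT and knockout libraries of the same number, which leaves 3 samples against 3, gave 9, the thread number as a covariate 8, and library totals only 10 with 1 member called higher. Without both 8-week libraries that stood apart it was 19.

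The promoters of 2 early genes that fell carry the palindrome bound by CREB and ATF factors, TGACGTCA, and are shown to set the letters beside the values. Windows run from 250 bases before to 50 bases after the RefSeq start (GRCm38.p6), both strands were searched, and the letters of each match are in capitals. The palindrome was in 1.79% of 32851 such windows and in 2 of 16 windows (12.5%) of the called early genes. It was in 4 of 36 windows (11.11%) of all tested early genes, called or not, and in 2.95% of windows of all tested genes.
Dusp1 (chr17:26508423-26508722, minus strand): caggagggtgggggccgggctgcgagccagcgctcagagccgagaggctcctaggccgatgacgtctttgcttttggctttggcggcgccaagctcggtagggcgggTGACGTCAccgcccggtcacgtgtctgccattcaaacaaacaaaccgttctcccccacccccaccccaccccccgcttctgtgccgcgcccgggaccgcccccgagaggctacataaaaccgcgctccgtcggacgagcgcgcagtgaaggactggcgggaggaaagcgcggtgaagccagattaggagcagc
Ppp1r15a (chr7:45526219-45526518, minus strand): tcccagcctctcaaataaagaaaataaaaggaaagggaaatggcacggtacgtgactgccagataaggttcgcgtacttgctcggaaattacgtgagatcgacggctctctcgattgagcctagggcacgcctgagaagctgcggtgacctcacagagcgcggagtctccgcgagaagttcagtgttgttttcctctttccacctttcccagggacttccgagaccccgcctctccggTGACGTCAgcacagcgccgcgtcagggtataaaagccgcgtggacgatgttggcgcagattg

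Part of the interferon-stimulated genes fell from 8 to 20 weeks. Of 57 tested, 16 were called lower and 0 higher (1.88% and 0.875% of all genes), 13 of the 16 changed alike, and 48 of 57 had a log2 value below 0. The list's median log2 fold change was -0.43, with -0.38 in WT and -0.47 in knockout-labelled cells.

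The largest fitted changes were those of Ifit3 and Ifit3b, of the IFIT family whose products bind foreign RNA. Ifit3 (ENSMUSG00000074896, chromosome 19, 34583531 to 34588731) lay between 14.7 and 63.3 CPM (median 35.8) at 8 weeks and between 0.372 and 7.66 CPM (median 4.64) at 20 weeks (log2 fold change -3.23, SE 0.66, adjusted p = 0.027). Ifit1 went from a median of 57.9 to 14.9 CPM (log2 fold change -2.002, adjusted p = 0.0239). Ifit3b, a near copy of Ifit3 with which reads may be shared, gave a log2 fold change of -3.18. Oasl1, a member of the oligoadenylate synthetase family, lay between 6.57 and 23.8 CPM (median 19.6) at 8 weeks and between 2.43 and 4.36 CPM (median 3.3) at 20 weeks (log2 fold change -2.31, SE 0.33, adjusted p = 0.00598), and Oas1a of the same family went from a median of 65.4 to 25.8 CPM.

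Rtp4, a chaperone of receptor transport that interferon induces, lay between 41.6 and 139.6 CPM (median 86.7) at 8 weeks and between 15.6 and 30.3 CPM (median 24.2) at 20 weeks, with no overlap. Irf7 and Usp18 are the amplifier and the brake of the response. Irf7 lay between 82.3 and 262 CPM (median 217) at 8 weeks and between 65.8 and 79.1 CPM (median 70.8) at 20 weeks (adjusted p = 0.0291), and Usp18 went from a median of 157 to 60.03 CPM (adjusted p = 0.0221). In Irf7 the lowest libraries of 8 weeks were replicate 3 of either genotype, at 92.8 and 82.3 CPM against 215.9 to 261.8 CPM in the other 4. The cytosolic sensors and effectors Dhx58, Zbp1, Xaf1, Isg15, Isg20, Rsad2, Mx1 and Ifi44 completed the called set, with log2 fold changes from -0.80 (Zbp1) to -1.82 (Isg15).

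Without any 1 of the libraries of 20 weeks, or without WT replicate 1 or knockout-labelled replicate 2 of 8 weeks, 3 to 6 members were called, and without any 1 of the other 4 libraries 13 to 21. With the WT and knockout libraries summed 0 were called (27 lower at an unadjusted p under 0.05), with the thread number as a covariate 3, and with library totals only 11. The median stayed between -0.48 and -0.35 over the single-library omissions. Markers of dendritic cells, which include sources of interferon, are given as a list with the other marker lists, without values of single plasmacytoid markers.

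The core to which IRF and STAT complexes bind (GAAA, 2 bases of any kind and GAAA again, searched on both strands) was in 3.443% of all windows and in 6 of 13 windows (46.15%) of the called interferon-stimulated genes. It was in 27 of 51 windows (52.94%) of the tested members of the list, called or not, and in 3.249% of windows of all tested genes. The windows of Ifit3 and Ifit1 are shown because both genes fell and each window holds 2 matches.
Ifit3 (chr19:34583279-34583578, plus strand): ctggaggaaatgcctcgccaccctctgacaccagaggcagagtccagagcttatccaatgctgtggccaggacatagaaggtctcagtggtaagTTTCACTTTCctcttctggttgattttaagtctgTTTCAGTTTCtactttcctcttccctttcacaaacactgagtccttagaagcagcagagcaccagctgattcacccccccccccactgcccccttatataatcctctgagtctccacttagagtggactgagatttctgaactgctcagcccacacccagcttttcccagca
Ifit1 (chr19:34640639-34640938, plus strand): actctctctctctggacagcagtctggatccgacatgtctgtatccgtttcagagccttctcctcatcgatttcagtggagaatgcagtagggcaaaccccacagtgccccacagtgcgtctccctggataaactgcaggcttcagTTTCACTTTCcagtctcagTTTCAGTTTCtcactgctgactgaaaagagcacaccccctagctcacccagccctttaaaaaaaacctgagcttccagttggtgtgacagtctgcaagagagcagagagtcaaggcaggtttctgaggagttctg

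Genes of DNA replication were among those that fell, and genes of mitosis are given beside them. Of 40 tested replication genes 13 were called lower and 0 higher (1.88% and 0.875% of all genes). Of the 13, 11 changed alike, against 217 of the 260 genes called lower in all. A log2 value below 0 was seen in 39 of 40 replication genes (median -0.53). Of 42 mitosis genes 1 was called lower, Cks1b (log2 fold change -0.55, adjusted p = 0.049), 19 had a log2 value below 0, and the median was 0.01. Cks1b was not called in 21 of 28 settings, the block within time and each omission of 1 library among them. The difference between the lists was not tested.

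Pcna, the sliding clamp of DNA polymerases, lay between 331 and 486 CPM (median 403) at 8 weeks and between 214 and 269 CPM (median 222) at 20 weeks (log2 fold change -0.84, SE 0.13, adjusted p = 0.00849). The MCM helicase unwinds DNA at the fork, and 4 of its genes or partners fell: Mcm5 went from a median of 561 to 339 CPM, Mcm3 from a median of 594 to 365 CPM, Mcm7 from a median of 456 to 281 CPM and Mcm10 from a median of 77.6 to 47.5 CPM. Mcm2 of the same ring was at a median of 171 CPM at 8 weeks and 139 CPM at 20 weeks and was not called (log2 fold change -0.41, adjusted p = 0.211).

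Gins2 and Gins1 encode subunits of the complex that couples the helicase to the polymerase. Gins2 went from a median of 83.7 to 43.6 CPM (log2 fold change -0.88, SE 0.13, adjusted p = 0.00796), with no overlap between the times, and Gins1 from a median of 30.99 to 18.2 CPM. Tk1, thymidine kinase, lay between 156 and 186 CPM (median 171) at 8 weeks and between 98.9 and 116 CPM (median 106) at 20 weeks. The clamp loader genes Rfc3 and Rfc4, the flap nuclease Fen1, the ligase Lig1 and the histone chaperone subunit Chaf1b were called with log2 fold changes of -0.54, -0.85, -0.85, -0.60 and -0.69. The proliferation marker Mki67 was at a median of 168 CPM at 8 weeks and 226 CPM at 20 weeks and Ccnb1, the mitotic cyclin, at 156 and 137 CPM, and neither was called (adjusted p = 0.656 and 0.353).

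Without any 1 of the libraries of 20 weeks, or without WT replicate 1 or knockout-labelled replicate 2 of 8 weeks, 3 to 6 replication genes were called, and without any 1 of the other 4 libraries 14 to 18. With WT and knockout libraries summed 0 were called (25 lower at an unadjusted p under 0.05), with the thread covariate 3, and with library totals only 3. The median log2 value kept its sign in each of these, at -0.54, -0.52 and -0.30.

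The sites TTTCCCGC and TTTGGCGC, bound by E2F factors, were in 1.565% of all windows and in 4 of 15 windows (26.67%) of called replication genes, Mcm3, Mcm5, Mcm7 and Rfc3. Of all tested replication genes, 11 of 41 windows (26.83%) held them, against 2.724% of windows of all tested genes. The Mcm3 window, with 1 match of each site, is shown.
Mcm3 (chr1:20820263-20820562, minus strand): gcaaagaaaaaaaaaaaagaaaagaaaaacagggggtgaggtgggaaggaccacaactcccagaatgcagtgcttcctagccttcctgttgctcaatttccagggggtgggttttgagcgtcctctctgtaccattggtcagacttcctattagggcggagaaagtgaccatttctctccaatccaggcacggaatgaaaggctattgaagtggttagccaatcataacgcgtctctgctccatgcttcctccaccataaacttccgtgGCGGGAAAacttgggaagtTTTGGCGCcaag

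**Figure D3:**
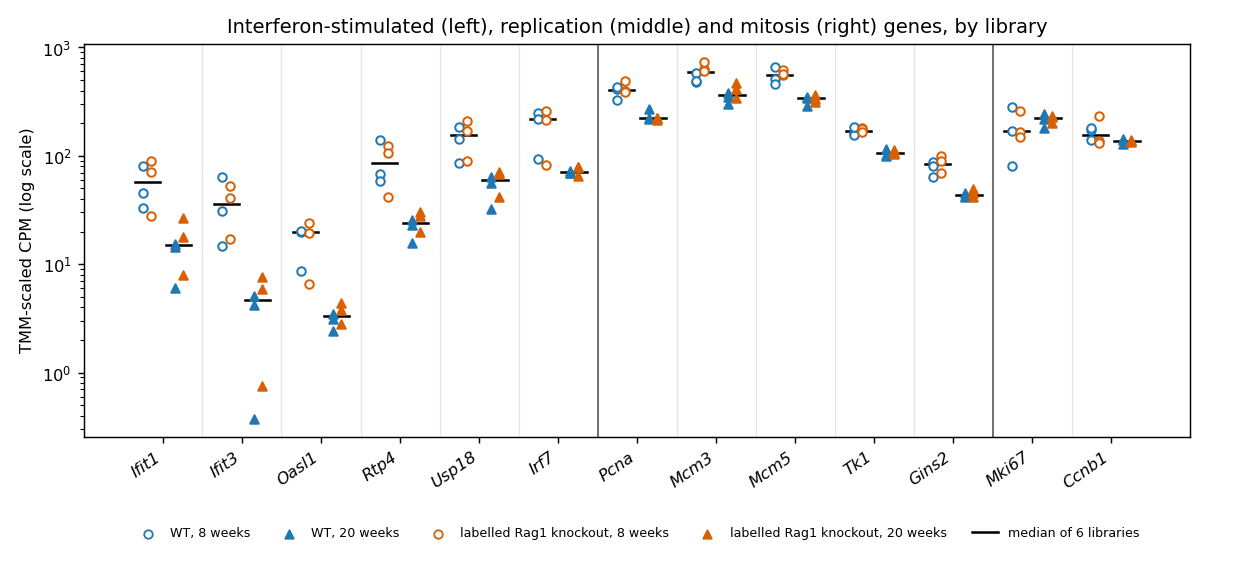
Levels in TMM-scaled CPM on a log axis, by library, of 6 interferon-stimulated, 5 replication and 2 mitosis genes, with open circles for 8 weeks, filled triangles for 20 weeks, blue for WT, orange for knockout-labelled cells and bars for the median of 6 libraries. The interferon-stimulated genes spread widely at 8 weeks, while Tk1 sits between 155.9 and 186.3 CPM at 8 weeks and between 98.9 and 115.9 CPM at 20 weeks, and Mki67 overlaps between the times.

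Several nuclear genes of the mitochondrial respiratory chain fell. Of 74 tested 7 were called lower and 0 higher (1.88% and 0.875% of all genes). All 7 changed alike, and 67 of 74 had a log2 value below 0 (median -0.33). Uqcrq of complex III lay between 205 and 435 CPM (median 259.5) at 8 weeks and between 121 and 162 CPM (median 130.2) at 20 weeks (log2 fold change -1.03, SE 0.18, adjusted p = 0.0165). Sdhb of complex II went from a median of 552 to 342 CPM, Atp5o of the ATP synthase from a median of 478 to 311 CPM and Cox7a2 of complex IV from a median of 194 to 117 CPM. Ndufc1, Ndufab1 and Ndufb9 of complex I gave log2 fold changes of -0.79, -1.15 and -0.49.

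These are short transcripts, and length moved with the time effect over all genes. Across the 13831 genes the Spearman correlation of transcript length with the log2 fold change was 0.163, and the median log2 value rose from -0.09 in the shortest length quartile to 0.11 in the longest. In the longest length quartile 26 of 3458 genes were called lower, and in the shortest 114 of 3458. The respiratory chain list had 78.4% of its members, and all 7 of its calls, in the shortest length quartile, where its median was -0.35. Cytosolic ribosomal protein genes, 93.3% of them in that quartile, had a median there of -0.08, with 0 of 75 called in edgeR (6 lower at an unadjusted p under 0.05), 1 lower in DESeq2 and 0 in limma-voom. The part of length in the respiratory chain result was not tested. With library totals only 1 member was called, the list's median being -0.10 against 0.25 for all genes, and 0 were called with the summed libraries or with the thread covariate. Without any 1 of the libraries of 20 weeks, or without WT replicate 1 or knockout-labelled replicate 2 of 8 weeks, 0 to 4 were called, and without any 1 of the other 4 libraries 3 to 19.

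Heat shock genes gave 3 lower calls of 23 tested (1.88% of all genes were called lower), all changed alike. Hspa8, the constitutive Hsc70 chaperone, lay between 2265 and 4867 CPM (median 3793) at 8 weeks and between 1331 and 3220.0 CPM (median 2153) at 20 weeks, Hsp90ab1 went from a median of 2648 to 1654 CPM, and Dnajb1, a co-chaperone of Hsp70, from a median of 105 to 59.7 CPM (adjusted p = 0.0246, 0.0352 and 0.0197). The inducible Hspa1a and Hspa1b were at medians of 1.06 and 0.936 CPM at 8 weeks and 0 and 0.0891 CPM at 20 weeks and were not called. With library totals only, with the summed libraries and with the thread covariate 0 were called (5, 8 and 9 lower at an unadjusted p under 0.05). It was 0 or 1 without any 1 of the libraries of 20 weeks, WT replicate 1 or knockout-labelled replicate 2 of 8 weeks.

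Effector genes of ILC2s divided. Of 25 tested type 2 cytokine and effector genes 5 were called lower and 0 higher (1.88% and 0.875% of all genes). The list's median was -0.03 (0.16 with library totals only). Omission of 1 library left between 1 and 8 called lower, the fewest when knockout-labelled replicate 3 of 20 weeks was omitted and the most when WT replicate 3 of 8 weeks was, with 3 or fewer without any 1 library of 20 weeks, without WT replicate 1 or without knockout-labelled replicate 1 or 2 of 8 weeks. The summed libraries and the thread covariate left 2 each, and both block fits 3. Areg, which encodes amphiregulin, a growth factor for epithelium, lay between 3.5 and 5.79 CPM (median 4.9) at 8 weeks and between 0.932 and 2.77 CPM (median 1.49) at 20 weeks (log2 fold change -1.57, SE 0.28, adjusted p = 0.0175). Il13 (ENSMUSG00000020383, chromosome 11, 53631324 to 53634702) lay between 11.9 and 37.97 CPM (median 16.5) at 8 weeks and between 7.44 and 11.8 CPM (median 10.3) at 20 weeks (log2 fold change -0.97, SE 0.23, adjusted p = 0.0458). Its fall was -0.42 in WT and -1.53 in knockout-labelled cells (unadjusted p = 0.031 for the difference), and 19 of 28 alternative settings did not call it. Il5, the eosinophil growth factor gene of the same cytokine cluster, lay between 123 and 203 CPM (median 173) at 8 weeks and between 147 and 185 CPM (median 156) at 20 weeks and was not called (log2 fold change -0.09, SE 0.14, adjusted p = 0.779).

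Tph1, the enzyme of serotonin synthesis that ILC2s express on activation, lay between 5.09 and 34.7 CPM (median 10.96) at 8 weeks and between 1.62 and 3.01 CPM (median 2.38) at 20 weeks (log2 fold change -2.36, SE 0.28, adjusted p = 0.00169). The chemokine genes Cxcl2 and Ccl3 fell from low levels, Cxcl2 from a median of 10.7 to 2.8 CPM and Ccl3 from a median of 1.22 to 0.0154 CPM. Csf2, the gene of GM-CSF, was at a median of 36.6 CPM at 8 weeks and 31.2 CPM at 20 weeks (adjusted p = 0.639). Of 17 genes typical of other innate lymphoid and cytotoxic cells 2 were called lower, Gzmb, granzyme B (from a median of 35 to 6.31 CPM), and Il17a, which was at 1.48 CPM or less in every library.

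Genes that define ILC2s did not pass the test. Of 26 tested identity genes 0 were called either way in edgeR (6 higher and 1 lower at an unadjusted p under 0.05) or in limma-voom, while DESeq2 called 3 higher and 1 lower. In edgeR 5 were called higher with library totals only, 4 higher and 1 lower without both 8-week libraries that stood apart or without WT replicate 3 of 8 weeks, and 3 higher without knockout-labelled replicate 3 of 8 weeks. The list's summed level was 8914 to 17390 CPM at 8 weeks and 12000 to 13270 CPM at 20 weeks. Defining genes of the labelled cell type were present in every library. Gata3 lay between 645 and 1419 CPM (median 908) at 8 weeks and between 583 and 1121 CPM (median 956) at 20 weeks and Klrg1, an inhibitory receptor of mature ILC2s, between 1063 and 1850.0 CPM (median 1606) at 8 weeks and between 1417 and 1604 CPM (median 1490.0) at 20 weeks. Their log2 fold changes were -0.11 (SE 0.20) and -0.02 (SE 0.15), and the sign of each turned with the setting.

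The receptors of the cytokines that feed these cells did not pass the test. Il7r, the IL-7 receptor chain, lay between 354 and 772 CPM (median 527) at 8 weeks and between 658 and 973 CPM (median 771) at 20 weeks (log2 fold change 0.61, SE 0.17, adjusted p = 0.0795). Il1rl1 lay between 174 and 312 CPM (median 223) at 8 weeks and between 296 and 351 CPM (median 323) at 20 weeks (log2 fold change 0.47, SE 0.15, adjusted p = 0.115). In both genes the groups did not overlap in either genotype. Icos, the costimulatory receptor, and Thy1, which encodes CD90, had log2 fold changes of 0.32 and 0.29 (adjusted p = 0.43 and 0.548).

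**Figure D4:**
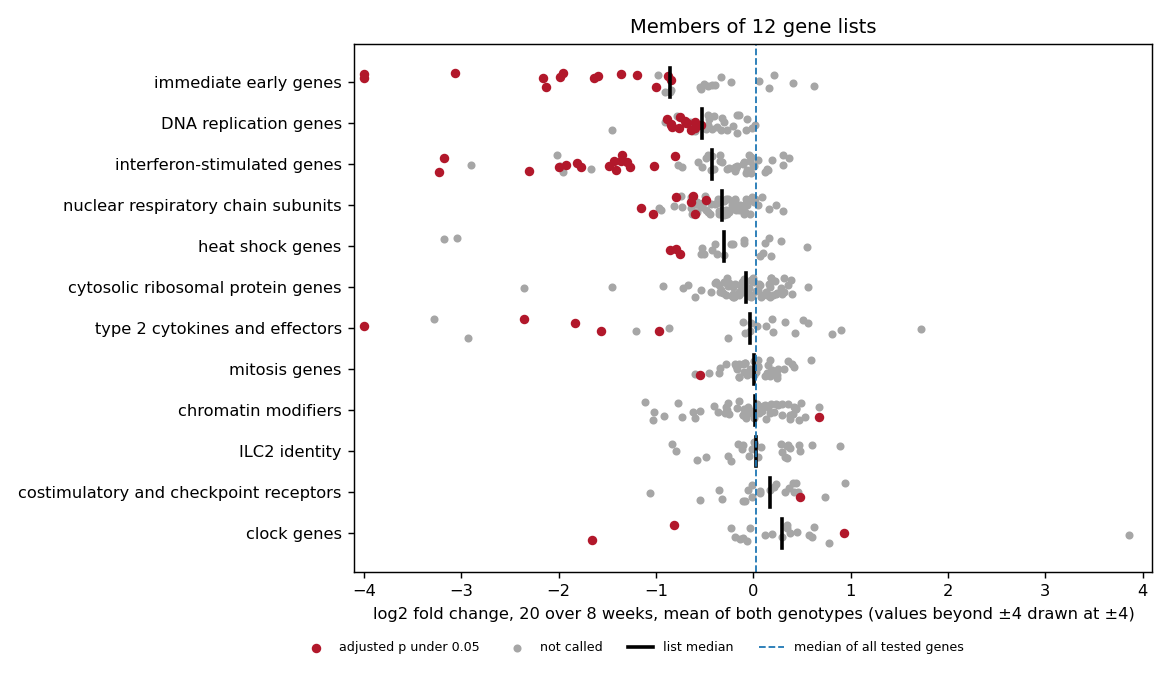
Log2 fold change from 8 to 20 weeks, averaged over both genotypes, of each tested member of 12 gene lists, with called members in red, the list's median as a black bar and the median of all tested genes as a dashed line. The medians of the early, replication, interferon-stimulated and respiratory chain lists lie at -0.86, -0.53, -0.43 and -0.33, and those of the mitosis and ILC2 identity lists at 0.01 and 0.03.

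The 121 genes called higher lay mostly outside the lists, none of which held more than 2 of them, and 27 were predicted genes or pseudogenes. The largest changes among genes changed alike belonged to Emp1, an epithelial membrane protein, Fmn1, an actin-nucleating formin, and Tmem45a, a transmembrane protein, with log2 fold changes of 1.72, 1.64 and 1.39. All 3 were low: Emp1 lay between 0.966 and 2.17 CPM (median 1.14) at 8 weeks and between 2.87 and 6.9 CPM (median 4.14) at 20 weeks. Naa30, Ces5a, Scai, Plscr4, Adgrg7, Pgap1, Kdm7a and Acss2 followed at log2 fold changes from 1.34 (Naa30) to 1.09 (Acss2). Acss2 makes acetyl-CoA from acetate and went from a median of 8.58 to 17.3 CPM, and Me3, a mitochondrial malic enzyme, went from a median of 37.7 to 65.6 CPM.

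The higher gene with the smallest p of those changed alike was Hlf (ENSMUSG00000003949, chromosome 11, 90336536 to 90390895), a PAR bZIP factor under clock control. It lay between 33.8 and 43.1 CPM (median 38.9) at 8 weeks and between 69.9 and 80.9 CPM (median 72.7) at 20 weeks (log2 fold change 0.93, SE 0.11, adjusted p = 0.00157), and all libraries of the later time were above all of the earlier. Of 21 clock genes it was the only 1 called higher, while Bhlhe40, a repressor that is also induced by activation, and Per1 were called lower. Bhlhe40 went from a median of 721 to 426 CPM and Per1 from a median of 7.57 to 2.26 CPM. The core factors Arntl and Clock were not called (log2 fold change -0.19 and 0.34, adjusted p = 0.67 and 0.52). The hour of harvest is not given in the labels.

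Txnip, an inhibitor of thioredoxin and of glucose uptake, lay between 74.6 and 165 CPM (median 123) at 8 weeks and between 188 and 391 CPM (median 280.5) at 20 weeks (log2 fold change 1.28, SE 0.21, adjusted p = 0.0113). It is also counted among glucocorticoid-induced genes, of which 19 were tested. In edgeR it was the 1 member called higher and Dusp1, Rgs2 and Per1 were called lower, while 7 of the 19 had a log2 value above 0 and DESeq2 called 2 higher and 5 lower. Bcl2, the survival gene downstream of IL-7, lay between 103 and 145 CPM (median 109) at 8 weeks and between 183 and 201 CPM (median 191) at 20 weeks (log2 fold change 0.69, SE 0.13, adjusted p = 0.0197), without overlap. It was the 1 called gene of 23 in the list of cytokine receptors, STAT5 targets and SOCS genes, and 11 of 28 settings did not call it.

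Of 25 migration and residency receptors 2 were called higher, of 23 costimulatory and checkpoint receptors 1, and Tnfsf4, Stap1 and Swap70 are given beside them. Cd44, the hyaluronan receptor, went from a median of 108 to 217 CPM, Ccr9, the gut-homing receptor, from a median of 13.9 to 23.99 CPM, Cd96 from a median of 75.96 to 108 CPM and Tnfsf4, which encodes OX40 ligand, from a median of 20.4 to 32.1 CPM. Stap1, an adaptor of tyrosine kinases, and Swap70, a regulator of actin, had log2 fold changes of 0.72 and 0.69. Cd44 was not called in 19 of 28 alternative settings, Cd96 in 18, Ccr9 in 14, Tnfsf4 and Swap70 in 17 each and Stap1 in 5. With the replicate block within time, the thread covariate or the summed libraries 0 migration receptors and 0 costimulatory receptors were called higher. Pcsk1, a prohormone convertase, lay between 33.01 and 50.5 CPM (median 41.99) at 8 weeks and between 69.4 and 87.3 CPM (median 81.1) at 20 weeks. Of 57 chromatin modifiers Tet3, which oxidises methylcytosine, was the 1 called (log2 fold change 0.67, adjusted p = 0.025). The list had 0 higher calls with the thread covariate or the summed libraries. It also had 0 without any 1 WT library, or knockout-labelled replicate 2 or 3, of 20 weeks, or without WT replicate 1 or knockout-labelled replicate 2 of 8 weeks. Other single omissions left 1 to 3. Ash1l, a histone methyltransferase that the list does not hold, was called as well (log2 fold change 0.67, adjusted p = 0.025). Irf4, counted in the plasma cell list but also used by activated lymphocytes, went from a median of 20.8 to 31.6 CPM.

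**Figure D5:**
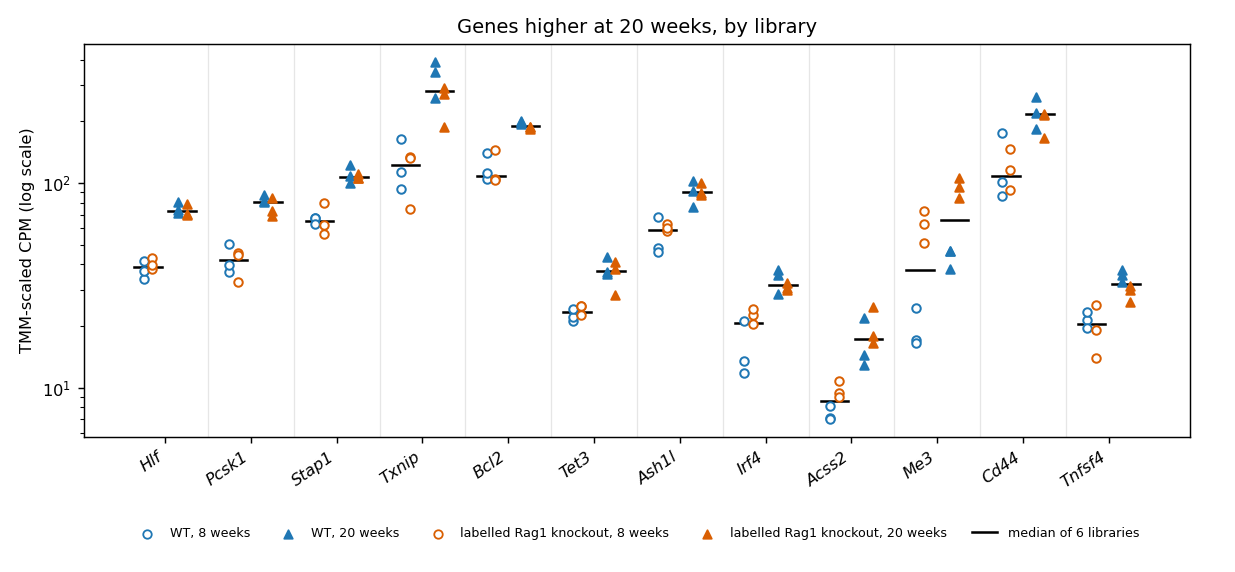
Levels in TMM-scaled CPM on a log axis, by library, of 12 genes called higher at 20 weeks, with open circles for 8 weeks, filled triangles for 20 weeks, blue for WT, orange for knockout-labelled cells and bars for the median of 6 libraries. Hlf sits between 33.8 and 43.1 CPM at 8 weeks and between 69.9 and 80.9 CPM at 20 weeks, and the triangles lie above the circles within each genotype in every gene shown. The genes were picked from those called higher, part of them after their values were seen, so this separation follows in part from the choice.

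The lists of markers of other cell types held 3 called genes in all. Of 14 tested B cell markers 1 was called lower, Cd79b (from a median of 151 to 92.95 CPM), which 13 of 28 settings did not call. At an unadjusted p under 0.05 5 B cell markers were lower, 12 of 14 had a log2 value below 0, and DESeq2 called 4 lower. Their summed levels were 190.6 to 641 CPM at 8 weeks and 180.1 to 344.8 CPM at 20 weeks. The B cell list's median log2 value was 0.23 in WT and -2.22 in knockout-labelled cells. Of 9 plasma cell markers Irf4 was called higher and Fkbp11 lower, with sums of 40.1 to 92.5 and 79.4 to 118 CPM. Of 11 dendritic cell markers 0 were called, and the sums, which Cd74 led, were 8897 to 21640 (median 15030) and 7550 to 11620 CPM (median 8813). T cell markers (16 tested, sums 850.2 to 1738 and 1173 to 1622 CPM) and NK cell markers (4 tested, 59.0 to 242.8 and 36.8 to 72.8 CPM) had 0 calls in edgeR. So had macrophage markers (9 tested, 12.2 to 28.3 and 8.19 to 18.1 CPM), neutrophil markers (3 tested, 3.52 to 9.87 and 4.30 to 6.90 CPM), mast cell, basophil and eosinophil markers (7 tested, 90.7 to 130.3 and 103.8 to 132.5 CPM), erythroid markers (4 tested, 14.7 to 55.7 and 22.1 to 34.4 CPM) and stromal markers (8 tested, 131.7 to 175 and 137.9 to 177.7 CPM). At an unadjusted p under 0.05 these lists had 1 higher and 2 lower T cell markers, 1 lower NK cell and 2 lower dendritic cell markers, 1 higher neutrophil marker, and 1 higher and 1 lower in each of the macrophage list and the mast cell, basophil and eosinophil list. DESeq2 called 1 NK cell and 1 dendritic cell marker lower and 1 mast cell, basophil or eosinophil marker in each direction, and limma-voom called 0 of these lists. S100a9, Ly6g, Clec9a, Fcgr1, Cma1, Epx, Klra7, Lyve1 and Prox1 had 0 estimated reads in all 12 libraries. The part of other cells in the results was not tested, and in bulk libraries fewer cells of a type and less RNA per cell cannot be told apart.

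A difference between the genotypes in the time effect was called for 7 genes (0.0506%), and 295 passed an unadjusted p under 0.05. None of the 7 belonged to the early, interferon, replication or respiratory chain lists. In each of the 7 the 3 WT libraries of 8 weeks lay above or below all 9 others. Nefh, a neurofilament gene, was at 0 in all 3 WT libraries of 8 weeks and between 9.03 and 20.9 CPM in the other 9. Fmo1, a flavin monooxygenase, was at 227, 154 and 221 CPM in them and between 30.7 and 53.8 CPM in the other 9. Pes1, a ribosome biogenesis factor, was at 31.6, 48.6 and 42.8 CPM in them and between 127.8 and 195.1 CPM elsewhere, and its call in the average (log2 fold change 0.87, adjusted p = 0.0175) rested on a change of 1.89 in WT against -0.15 in knockout-labelled cells. Ets1, a transcription factor of lymphoid development, was at 186, 189 and 195 CPM in them and between 988 and 6121 CPM elsewhere, and was called neither in the average (adjusted p = 0.138) nor in the interaction.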

How the data were processed

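Poly(A) RNA, per the labels, of ILC2s was sequenced in 12 libraries, 6 of 8 weeks and 6 of 20 weeks after transplant. Per the file headers, sailfish 0.6.3 gave the deposited expected counts (estimated reads) and TPM of each transcript from 20-base k-mers and Ensembl release 76. The submitters' processing notes do not list sailfish but featureCounts 1.4.5, Subread, STAR 2.0.4b and bcl2fastq, without their roles. By contrast with poly(A) selection, the labels' protocol has random hexamers after ribosomal RNA depletion. Strand is not given in the sources used here, so overlapping and antisense genes cannot be told apart, and reads shared by paralogs were divided by the model.

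Transcripts were summed to GENCODE M21 (GRCm38) genes, which left out 1.005% to 1.535% of reads, and only autosomal genes were kept. Rounded sums were filtered with filterByExpr by group, scaled by TMM and fitted with edgeR 4.0.16 (R 4.3.3) on 4 group means, with a common biological coefficient of variation of 0.374. Contrasts were the mean of both time effects and their difference, adjusted by Benjamini-Hochberg over 13831 genes and called at 0.05. CPM in the text are TMM-scaled and not per length. The deposited TPM values entered as length-scaled counts among the alternatives. These were DESeq2 1.42.0, limma 3.58.1 (voom), other scalings and filters, replicate blocks, a thread covariate, all chromosomes, and omission of libraries. These also held an additive fit. Additive fits within the libraries of 8 or of 24 threads were added after seeing the data. The script was tested on simulated data.

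The members, the 33 program and 10 marker lists and the rules were chosen with earlier results of these data known. Named genes were 10 fixed ones, the 12 largest changes in each direction among genes changed alike with a mean of at least 2 CPM, up to 4 called members of each list (or the 2 of smallest p where none was called), and the leading interaction genes. Fosb, Jun, Klf6, Spon2, Cd69, Hlf, the remaining called members of the early, interferon-stimulated, replication and respiratory chain lists, Pcsk1, Stap1, Me3, Swap70, Tnfsf4, Ash1l, Mki67, Ccnb1, Mcm2, Csf2 and the families in the closing section were chosen after their values were seen. A few genes are not reported here.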

Additional observations from a re-analysis of the deposited data

Results flagged for a closer look

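For 7 genes the time effect differed between the genotypes in edgeR's interaction test, and their interaction values are the change in knockout-labelled cells minus that in WT cells on the log2 scale. The values were -11.2 for Nefh, 6.92 for Capn11, 3.47 for Adamts13, 2.86 for Fmo1, 2.74 for the pseudogene Gm9864, -2.03 for Pes1 and 5.12 for Hectd4. The value for Nefh rests on the prior count, since WT cells of 8 weeks had 0 reads. Against a floor of 3 counts per library, Nefh was at least 54.8-fold higher in WT cells at 20 weeks than at 8 weeks. Capn11, a calpain protease gene, was at 43.2, 39.1 and 36.2 CPM in WT cells of 8 weeks and at 0.44, 0.446 and 0 CPM in those of 20 weeks. Its knockout-labelled libraries lay between 2.81 and 6.60 CPM at both times. Adamts13, the protease that trims von Willebrand factor, was at 13.04, 19.8 and 17.1 CPM in WT cells of 8 weeks and between 1.30 and 2.38 CPM in the other 9 libraries. Hectd4 was at 13.8, 20.1 and 18.5 CPM in WT cells of 8 weeks and at 1.69, 0.77 and 0.455 CPM in those of 20 weeks, and was not called in the average (adjusted p = 0.0522).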

How the results depend on the processing

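The count of genes called in the average was 381 (121 higher, 260 lower, 309 changed alike). It was 1178 with DESeq2 (405 higher, 773 lower, 684 alike), 484 with library totals only (399 higher, 85 lower), 938 without both 8-week libraries that stood apart (384, 554 and 814 alike) and 61 with the thread covariate (11, 50 and 54). The 6 other planned settings without omissions or blocks gave 267 to 472, and a fit with genotype as an additive term gave 440. With no low-count filter 80 were higher and 205 alike. It was 38 with WT and knockout libraries summed (5 and 33) and 13 in the 24-thread libraries alone, all lower, with 0 higher. The 8-thread libraries held no knockout-labelled library of 20 weeks, so the time effect fitted in them came from WT cells alone. That fit called 0 of either direction (1072 at an unadjusted p under 0.05). Leaving out 1 library gave 60 to 851 (12 to 335 higher, 46 to 516 lower, 53 to 615 alike); the 60 came without knockout-labelled replicate 2 or 3 of 20 weeks and the 851 without WT replicate 3 of 8 weeks. Without any 1 library of 20 weeks, WT replicate 1 or knockout-labelled replicate 2 of 8 weeks, 60 to 122 were called. Without any 1 of the other libraries of 8 weeks 303 to 851 were called. Each of these fits left out 1 library, and the cause of the range was not tested. Interaction calls were 7, 26 with DESeq2, 14 over all chromosomes, 16 without both libraries and up to 11 without 1.

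The replicate block over all 4 groups gave 293 genes (94 higher). Same-numbered WT and knockout libraries correlated in their deviations at 0.225, 0.153 and 0.109 at 8 weeks and at 0.071, 0.074 and 0.118 at 20 weeks, and different numbers at -0.179 to 0.04, each library most with its own number. Every pair was over 0.1 at 8 weeks but not at 20 weeks, and the labels do not say whether a number marks 1 host, so the block stayed an alternative. The main test treated the libraries as independent. Its p-values may be too small if same-numbered libraries shared a host. The replicate block within time was fitted with limma-voom, not edgeR, at an estimated correlation of 0.176. It gave 211 (60 higher, 151 lower, 184 alike), against 472 with limma-voom without the block. The block left 10 early, 12 interferon-stimulated, 9 replication, 3 respiratory chain, 2 heat shock and 3 effector genes called lower. Without the block limma-voom called 14, 18, 15, 11, 3 and 4 of them lower. With the block 0 of the mitosis, sterol, histone and costimulatory lists were called.

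Signs turned for 8 of the named genes, none of them called, and the cause was not tested. Values from 8-thread libraries are time effects of WT cells alone. Gata3 was at 0.15 with library totals, 0.12 with the thread covariate, 0.16 without both libraries, 0.03 without WT replicate 2 or knockout-labelled replicate 3 of 8 weeks (0.02913 and 0.02505) and 0.12 in 24-thread libraries, from -0.21 over single omissions. Klrg1 was at 0.01 with limma-voom (0.01398) and upper-quartile scaling (0.01029), 0.20 with library totals, 0.02 with the block within time (0.01515), 0.18 in 8-thread libraries, and 0.00513, 0.0332, 0.003472 and 0.05997 without WT replicate 1, knockout-labelled replicates 1 and 2 and WT replicate 3 of 8 weeks (lowest over single omissions -0.10). Il5 was at 0.12 with library totals, Ets1 at -0.11 with summed libraries, Ppbp at 1.05 in 8-thread and Mcpt8 at 0.18 in 24-thread libraries, Ccl19 at 0.15 without both libraries and Mmp8 at 0.15 without knockout-labelled replicate 1 of 8 weeks (otherwise down to -1.18). Depth limits genes under about 2 CPM, such as Nr4a2 and Atf3 at 20 weeks. The floors cover counting error only, whereas each SE comes from the edgeR fit and includes the spread between libraries.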

Other observations

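Gene families outside the lists were looked at after the values were seen, and carry no test as families. The part of transcript length in their values was not tested. Of 37 tested proteasome subunit genes (Psma, Psmb, Psmc and Psmd), which encode the particle that degrades ubiquitin-tagged proteins, 8 were called lower at 20 weeks and 0 higher, 34 had a log2 value below 0, and the median was -0.32. Psmb6, a catalytic subunit, lay between 305 and 606 CPM (median 398) at 8 weeks and between 202 and 266 CPM (median 237) at 20 weeks (adjusted p = 0.025). Of 78 mitochondrial ribosomal protein genes 6 were called lower and 0 higher, 59 had a log2 value below 0, and the median was -0.22. Over all genes 1.88% were called lower and 0.875% higher. With library totals only the medians were -0.09 and -0.01, against 0.25 for all genes, and 0 of either family were called. With the thread covariate 0 were called, at medians of -0.33 and -0.22.

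Of 339 zinc finger genes named Zfp, many of which encode KRAB repressors, 3 were called higher (0.875% of all genes were) and 0 lower, 250 had a log2 value above 0, and the median was 0.22, with 0.25 in WT and 0.19 in knockout-labelled cells. Library totals only gave 14 higher, DESeq2 12 higher and 3 lower, and the thread covariate 1 higher. Zfp617 lay between 7.85 and 14.3 CPM (median 10.4) at 8 weeks and between 19.3 and 26.5 CPM (median 21.9) at 20 weeks. The Ifi200 family of DNA-binding proteins, a cluster of interferon-inducible genes, had calls in both directions. Of 10 tested members Ifi214, Ifi208 and Ifi213 were called lower, at medians of 26.03, 32.1 and 26.04 CPM at 8 weeks and 7.48, 12.3 and 9.93 CPM at 20 weeks. Aim2, the sensor of cytosolic DNA, was called higher (log2 fold change 0.90, adjusted p = 0.0361) and lay between 9.87 and 27.1 CPM (median 18.3) at 8 weeks and between 29.8 and 42.8 CPM (median 32.5) at 20 weeks. These genes are near copies of each other, and reads may be shared between them.

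Ei24, counted among p53 targets, was called higher (log2 fold change 3.68, adjusted p = 0.0243), while it lay between 12.6 and 21.6 CPM in the 6 libraries of 8 weeks and in 2 of the knockout-labelled libraries of 20 weeks. The other 4 libraries of 20 weeks were at 118, 320.4, 974 and 218 CPM. Of the p53 targets that were called lower, Cdkn1a, Plk2 and Plk3, Plk3 went from a median of 14.9 to 5.93 CPM.

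The remaining lists had 3 or fewer called members. Of 29 replication-dependent histone genes 1 was called higher and 1 lower, of 39 ribosome biogenesis genes 1 (Pes1) higher and 1 lower, of 22 sterol synthesis genes 1 lower, of 29 antioxidant genes 1 (Txnip) higher, of 23 costimulatory and checkpoint receptors 1 higher, and of 25 migration and residency receptors 2 higher and 1 (Cd69) lower. With the replicate block within time, a limma-voom fit, the histone, sterol and costimulatory calls and the higher migration calls were lost. The lower histone call was already absent in limma-voom without the block. edgeR called 0 members of 9 further lists. At an unadjusted p under 0.05 these held 2 higher and 5 lower of 27 genes of the unfolded protein and integrated stress responses, 3 and 6 of 32 glycolysis and hypoxia genes, 1 and 7 of 32 lipid genes, 2 and 7 of 42 actin genes, 2 and 5 of 49 splicing factors, 1 and 4 of 37 lysosome and autophagy genes, 0 and 3 of 20 aminoacyl-tRNA synthetases, 2 and 2 of 22 genes of MHC class I processing, and 1 and 1 of 17 naive-like and quiescence genes. DESeq2 called between 1 (MHC class I processing) and 6 (glycolysis and hypoxia) members of each, and limma-voom called 2 glycolysis genes and 1 lipid gene lower and 0 in the other 7 lists. Of the long nuclear RNAs and small RNA host genes 1 was tested and not called, and of the structured noncoding RNAs 0 passed the filter.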
